A study of Mus musculus with 2 samples.

Results

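Open chromatin was examined over the histone gene cluster of mouse chromosome 13, from position 21700000 to 24000000 on build mm9. All peaks that overlapped this region were taken, 29 of the 13492 DNase-seq peaks called without RANKL and 50 of the 16447 called with RANKL. The region was divided by position into histone group 1 (21800000 to 22150000), histone group 2 (23600000 to 23900000), the stretch between them and a flank at each end, and a peak belonged to the part that held its centre. These round bounds stand for the approximate place of the Hist1 genes, the older name of the cluster, and were set with earlier results of these data known. DNase-seq sequences the short fragments that DNase I releases from open chromatin. The cells were RAW264, a mouse macrophage-like line that can form osteoclasts, the cells that resorb bone. One culture was left without RANKL, the cytokine that starts osteoclast formation, and the other was given RANKL fused to GST at 234 ng/ml for 24 hours. Each condition had 1 library, so no value below carries a replicate error and no test between conditions was possible.

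Histones are the proteins around which DNA is wound. The core histones H2A, H2B, H3 and H4 form the spool, and the linker histone H1 binds where DNA enters and leaves it. Most of these proteins are needed in bulk when DNA is copied, and the replication-dependent histone genes are transcribed mainly during S phase, from short genes without introns that lie together in clusters. Vomeronasal receptor genes, which are used in sensory neurons that detect pheromones, lie next to this cluster in the mouse, and so do many transfer RNA genes.

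The gene content of the cluster was read as gene order from RefSeq on build GRCm38, because no annotation of mm9 was used here. Peaks were therefore not placed on genes, and the identity of the cells could not be checked at marker genes. In that order the histone genes form 2 runs. Run 1 goes from H2bc13 to H2bc11 and holds 23 histone genes, with 1 for H1, 7 for H2A, 8 for H2B, 2 for H3 and 5 for H4. Inside it, between H4bc24 (an H2B gene by its older name Hist1h2br) and H2ac12, lie 31 transfer RNA genes and the genes Zfp184, Pom121l2 and Prss16. Run 2 goes from H4c8 to H1f1 and holds 29 histone genes, with 5 for H1, 5 for H2A, 6 for H2B, 7 for H3 and 6 for H4. It also contains Hfe, which takes part in the control of iron uptake. The 147 genes listed between the runs include 36 vomeronasal receptor genes, 43 vomeronasal pseudogenes and 46 transfer RNA genes. Of these 46 transfer RNA genes, 45 come after the last vomeronasal gene. The protein-coding genes of that last part are, in order, Zfp322a, Abt1, Btn1a1 and Btn2a2, followed by run 2.

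Control DNA of 5 histone genes is given as 1 example per histone class, which need not be typical of its class. Each is the 150 bases that end 1 base before the annotated start of the gene, 5′ to 3′ on the gene's own strand, from RefSeq on GRCm38. H4c1 lies on the minus strand and the other genes on the plus strand. They are the lowest-numbered genes of each class in the runs that have an entry, and H3c1 had none. Capitals mark 4 short motifs on either strand: the TATA box (TATAAA), the CCAAT box (CCAAT), the octamer (ATTTGCAT) and the H1 box (AAACACA).
H1f1: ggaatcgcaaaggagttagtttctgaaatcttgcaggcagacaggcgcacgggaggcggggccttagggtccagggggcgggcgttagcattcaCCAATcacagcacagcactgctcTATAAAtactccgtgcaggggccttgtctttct
H2ac4: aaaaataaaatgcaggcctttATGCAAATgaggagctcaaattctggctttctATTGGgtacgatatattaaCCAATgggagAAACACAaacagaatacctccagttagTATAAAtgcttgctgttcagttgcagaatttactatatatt
H2bc3: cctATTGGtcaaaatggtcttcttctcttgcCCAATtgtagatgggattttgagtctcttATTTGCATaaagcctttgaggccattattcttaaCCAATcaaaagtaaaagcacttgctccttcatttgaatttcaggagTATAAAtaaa
H3c2: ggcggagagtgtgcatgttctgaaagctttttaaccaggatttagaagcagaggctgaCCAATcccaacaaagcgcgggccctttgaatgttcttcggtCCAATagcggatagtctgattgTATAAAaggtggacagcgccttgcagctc
H4c1: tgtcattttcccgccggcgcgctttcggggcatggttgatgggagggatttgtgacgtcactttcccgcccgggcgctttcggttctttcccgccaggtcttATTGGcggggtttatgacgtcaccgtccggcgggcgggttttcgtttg

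Of the 52 histone genes in both runs, 49 had a promoter entry, which gave 50 promoters. The missing genes were H3c7, H2bc4 and H3c1. In the 250 bases before the start, CCAAT or its reverse ATTGG was found in 42 of 50 histone promoters (84.0%) and in 33.8% of all 32851 promoters of the same length. It was present in all 6 H1, 12 H2A, 14 H2B and 7 H3 promoters searched, and in 3 of 11 H4 promoters, H4c1 among them. TATAAA or TTTATA was present in 24 (48.0%), against 12.4% of all promoters. The octamer ATTTGCAT or its reverse ATGCAAAT was found in 9, of which 4 were H2A and 5 were H2B promoters, against 1.60% of all. The H1 box AAACACA or its reverse TGTGTTT was found in 5 of 6 H1 promoters, 1 H2A and 1 H2B promoter, against 6.25% of all. That H2A promoter is the one of H2ac4, while the 150 bases printed for H1f1 hold no H1 box. TATAAA can overlap AAACACA in their shared letters, and 9 pairs of histone promoters overlap each other, as H2A and H2B genes often start back to back. A match describes these letters and does not show that a factor binds.

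Peaks were denser in the histone groups than over the whole stretch between them in both libraries. Without RANKL, the 2 groups together held 22 peaks in 0.65 Mb, or 33.8 per Mb (95% Poisson interval 21.2 to 51.2). The stretch between held 7 peaks in 1.45 Mb, or 4.83 per Mb (1.94 to 9.95). The ratio of the densities was 7.01 (2.89 to 19.4). With RANKL the groups held 42 peaks, or 64.6 per Mb (46.6 to 87.3), and the stretch again held 7, for a ratio of 13.4 (5.96 to 35.3). Intervals here and below cover counting error only and treat neighbouring peaks as independent, which they are not. Group 1 held 10 peaks without RANKL and 22 with RANKL, and group 2 held 12 and 20. The density of group 2 over that of group 1 was 1.40 without RANKL (0.554 to 3.62) and 1.06 with RANKL (0.549 to 2.04), and both intervals include a ratio of 1.

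Few places of this size held as many peaks. Chromosomes 1 to 19 and X were cut into 7537 consecutive windows of 350 kb, the length of group 1. Without RANKL the mean was 1.79 peaks per window, and 211 windows (2.80%) held at least the 10 peaks of group 1. With RANKL the mean was 2.17, and 12 windows (0.159%) held at least 22. For group 2, of 8792 windows of 300 kb, 60 (0.682%) held at least 12 peaks without RANKL and 14 (0.159%) held at least 20 with RANKL. Many windows held no peak, 52.8% of those of 350 kb without RANKL and 46.1% with RANKL. For 300 kb it was 55.4% and 49.1%. The windows lay on a fixed grid that can split other clusters, while the groups were placed around known genes. Dense as they were, the groups covered little DNA. Peaks filled 7.84% of the 2 groups without RANKL and 1.56% with RANKL, where the median RANKL peak of the whole list was 233 bp wide and the median peak without RANKL 1738 bp.

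**Figure D1:**
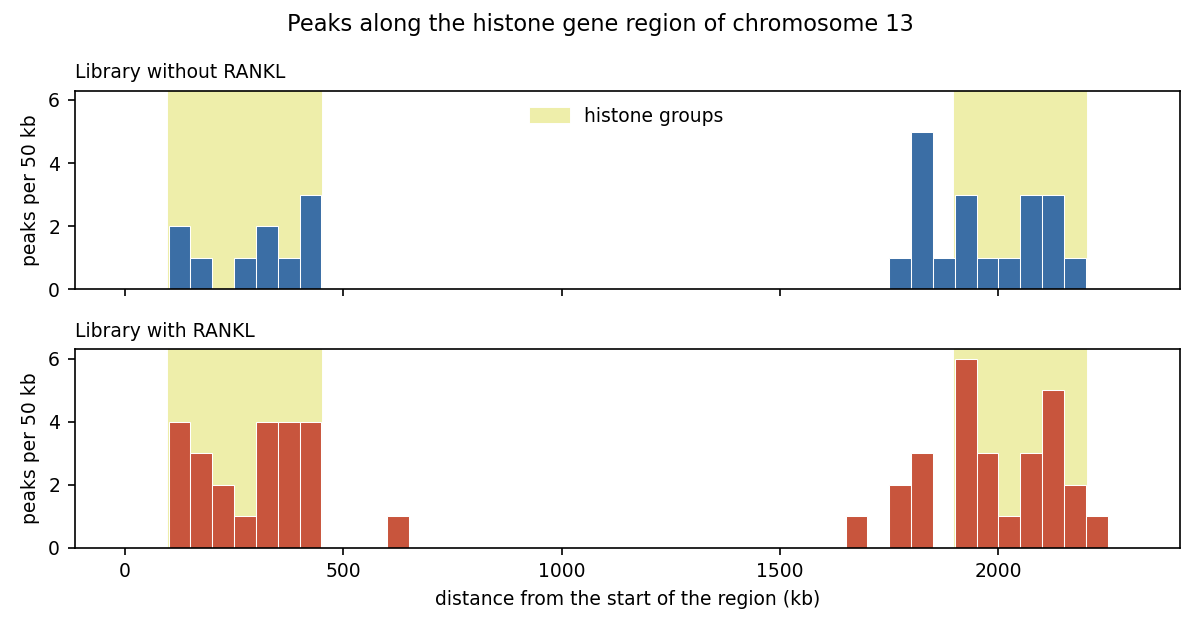
Peaks per 50 kb (vertical axis) along the region, by distance from its start in kb (horizontal axis), without RANKL (upper panel) and with RANKL (lower panel). Shading marks the histone groups, which held 22 and 42 peaks, and the long empty part lies between them.

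The stretch between the groups was nearly empty over most of its length. Without RANKL no peak lay between 22143635 and 23492406, a gap of 1.35 Mb, and 382 of 13459 gaps between neighbouring peaks on chromosomes 1 to 19 and X (2.84%) were at least as long. With RANKL 2 narrow peaks fell inside this gap. The peak at 22336286 to 22336406 had a score of 67.1, with the other list 193 kb away. The peak at 23390752 to 23390877 had a score of 50.04, close to the lowest score in the list. All other peaks of the stretch, 7 without and 5 with RANKL, lay in its last 200 kb, a division made after the positions were seen. There the density was 35.0 per Mb without RANKL (14.1 to 72.1) and 25 per Mb with RANKL (8.12 to 58.3), and these intervals overlap those of the groups. The low density of the stretch as a whole thus came from the rest of it.

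This end of the stretch held the strongest site of the region. The score is the authors' own value per peak, and it is given here with its percentile, the percent of peaks in the same list that scored lower. The site at 23492406 to 23494424 scored 365 without RANKL (percentile 98.5), and the RANKL peak inside it at 23493210 to 23493639 scored 286 (percentile 94.7). These were the highest scores of the region in their lists. The site at 23536956 to 23539209 stood at percentile 89.0 without RANKL and 54.0 with RANKL, and the one at 23514971 to 23519563 at 74.7 and 41.8. The opposite order was seen at 23522114 to 23525604, at percentile 45.3 without RANKL and 87.5 with RANKL.

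Most sites called without RANKL in the histone groups were also called with RANKL. Of 22 peaks without RANKL, 18 overlapped a RANKL peak by at least 1 bp (81.8%, Wilson interval 61.5 to 92.7%) and 4 did not (18.2%, 7.31 to 38.5%). In the whole list 39.3% of peaks did not, just above the upper limit of this interval. The groups' peaks were not stronger than usual, with a median percentile of 51.8 (range 9.19 to 92.5), and 11 of 22 were in the upper 50% of the list. In the list as a whole, peaks of the same 10% steps by score were shared in 64.7% of cases on average, a value inside the groups' interval. In the stretch between, 4 of 7 peaks were shared (57.1%, 25.05 to 84.2%), an interval that contains the share of the groups. Of the 7 RANKL peaks there, 5 were shared (71.4%, 35.9 to 91.8%).

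The 4 sites called only without RANKL had low scores, as such sites did in the list at large, where their median percentile was 28.0. In group 1 they were 21801540 to 21803374 (score 78.4, percentile 32.7), with a RANKL peak 4.63 kb away, and 21825815 to 21826932 (score 75.5, percentile 30.2). The latter ended 305 bp before a RANKL peak and would count as shared under a looser rule. In group 2 they were 23789135 to 23791031 (score 58.5, percentile 11.6) and 23802029 to 23803257 (score 56.5, percentile 9.19), 2.01 and 8.75 kb from a RANKL peak. Of the 11 peaks of the groups in the upper 50% of the list, 0 were without a RANKL counterpart (0 to 25.9%), against 16.9% of that part of the whole list, a value inside the interval.

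In the reverse comparison some RANKL peaks of the groups lay on no peak of the other list. Of 42 RANKL peaks, 19 were RANKL-only (45.2%, 31.2 to 60.1%). The share in the whole list was 34.3%, inside that interval, and on chromosome 13 outside the region it was 39.3% (35.7 to 43.1%). The groups' RANKL peaks scored somewhat higher than the list, and all RANKL peaks of the same 10% steps by score were RANKL-only in 30.4% of cases on average, just below the interval of the groups. In the upper 50% of the list by score, 11 of the 28 RANKL peaks of the groups were RANKL-only (39.3%, 23.57 to 57.6%), against 14.6% of all such peaks and 17.4% of those on chromosome 13 outside the region (13.6 to 22.0%). There the interval of the groups lay above the share of the list, with 6 of 13 peaks in group 1 and 5 of 15 in group 2. This comparison was not matched by score within the upper 50%, and close neighbours were counted singly. The groups had 0 RANKL peaks in the highest 10%, where 4.68% of the list was RANKL-only, and the 14.6% includes those peaks. In the lowest 10% step of the upper 50%, 28.1% of the list was RANKL-only. The contrast with 14.6% is therefore larger than it would be at equal scores, by an amount that was not measured. Over all scores, group 1 accounted for 12 of its 22 (54.5%, 34.7 to 73.1%). The share of the whole list lay just below this interval, and the share at the same scores, 34.8%, just inside it. In group 2 there were 7 of 20 (35.0%, 18.1 to 56.7%), so the groups' intervals overlapped widely. With neighbours less than 1 kb apart joined, 18 of 33 RANKL peaks of the groups were shared (54.5%, 38.0 to 70.2%) and the others were RANKL-only. In the joined RANKL list as a whole, 39.2% were RANKL-only and the rest were shared. That shared part of the list lies inside the interval of the groups. The groups held 1.91 RANKL peaks per peak without RANKL (1.11 to 3.36), against 1.22 over both lists and 1.33 on chromosome 13 outside the region (1.18 to 1.50). Joining neighbours less than 1 kb apart gave 1.50 in the groups (0.849 to 2.70) and 1.02 in the lists as a whole. Both intervals of the groups contain the ratio of the lists. In the upper 50% of each list by score the ratio was 2.55 (28 and 11 peaks, 1.23 to 5.67), an interval that just excludes the 1.22 of the whole upper parts. Neighbours were not joined for this ratio. Whether the interval would still exclude the ratio of the lists with neighbours joined was not tested.

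**Figure D2:**
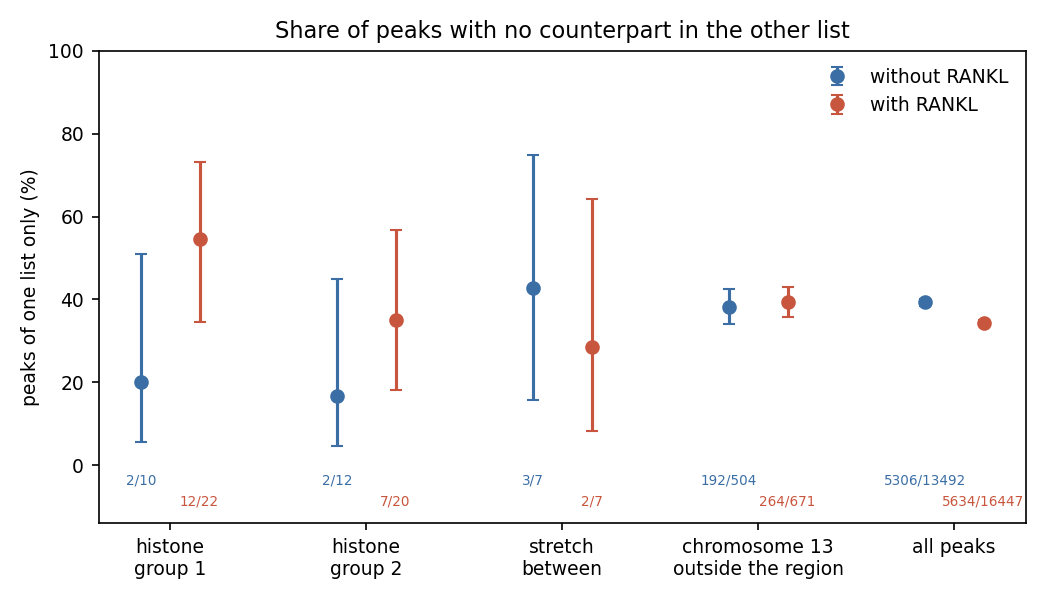
Percent of peaks with no counterpart in the other list (vertical axis) by part of the region, on chromosome 13 outside it and in the whole lists (horizontal axis), with 95% Wilson intervals for counting error and the counts printed underneath. In group 1 the share was 20% without RANKL and 54.5% with RANKL, and the intervals of the groups are wide.

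RANKL-only peaks in the groups had a median percentile of 55.3, against 27.3 for all 5634 RANKL-only peaks and 64.1 for the shared RANKL peaks of the groups. The groups were unlike in this, with a median of 38.4 over the 12 peaks of group 1 and 66.1 over the 7 of group 2. The highest was in group 2 at 23666020 to 23666377, with a score of 142 (percentile 80.4) and no peak without RANKL within 10.4 kb. Of all RANKL peaks in the same 10% step by score, 7.54% were RANKL-only. A row of 3 RANKL-only peaks lay at 23622328 to 23622703, 23622706 to 23623066 and 23623254 to 23623710, with scores of 102, 62.3 and 117, and the nearest peak without RANKL was 10.3 kb from the first. The others in group 2 were 23662940 to 23663091 (62.8), 23842907 to 23843067 (86.9) and 23844068 to 23844248 (97.2), the last at percentile 66.1.

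In group 1, 6 of the RANKL-only peaks lay between 21808008 and 21879445, near the start of the group. The strongest was at 21808008 to 21808327 (score 116, percentile 73.7), followed within the same kilobase by 21808731 to 21808956 (score 83.7). Next along the chromosome, with scores in parentheses, came 21827238 to 21827399 (80.8), 21845840 to 21846001 (73.9), 21879049 to 21879207 (80) and 21879324 to 21879445 (57.8). Further on, the peak at 22010735 to 22010981 had a score of 101 (percentile 68.1) and lay 3.55 kb from the other list. The remaining 5 were weak, with percentiles from 8.80 to 26.2. They lay at 21944480 to 21944613 (52.1), 21947714 to 21947883 (53.4), 22085969 to 22086082 (53.6), 22098167 to 22098341 (57.6) and 22134800 to 22134913 (56.5).

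**Figure D3:**
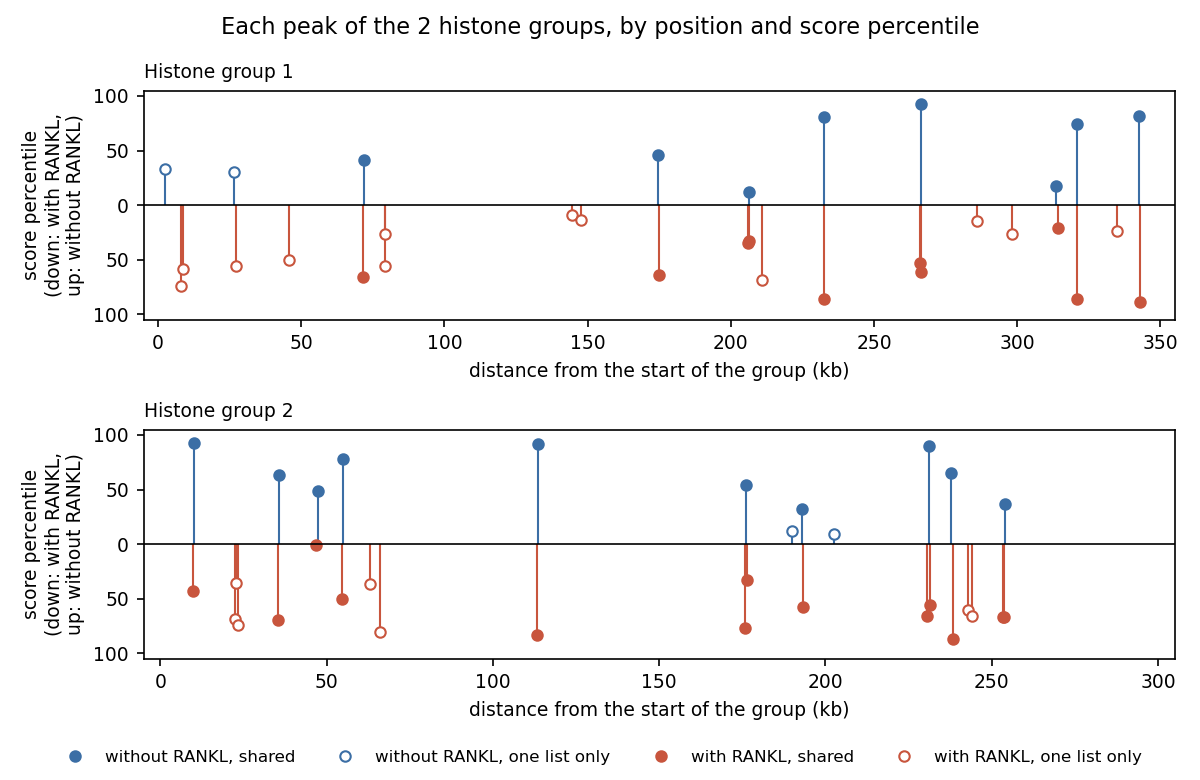
Each peak of histone group 1 (upper panel) and group 2 (lower panel) by distance from the start of its group in kb (horizontal axis) and score percentile within its own list (vertical axis), upward without RANKL and downward with RANKL. Filled points are shared and open points are of one list only. The open RANKL points reach percentile 80.4 and the open points without RANKL stay at or below 32.7.

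The groups held no RANKL peak among the strongest of the list. Of their 42 RANKL peaks 28 (66.7%) were in the upper 50% by score, but 0 were in the highest 10%, a count that allows a share of up to 7.14% (3 peaks of 42). Their top percentile was 88.8. Without RANKL 3 of 22 were in the highest 10%. The highest RANKL scores in group 1 were 199 at 22142604 to 22142914, 173 at 22032246 to 22032651 and 171 at 22120693 to 22121124, at percentiles 88.8, 85.8 and 85.6. All 3 lay inside broad peaks that were also strong without RANKL, at 22141544 to 22143635 (score 177, percentile 82.0), 22031689 to 22033629 (score 172, percentile 80.5) and 22120096 to 22121862 (score 150, percentile 74.0). These 3 sites thus ranked high in both libraries. The fifth by score without RANKL in this group, 21973575 to 21975582 (score 95.3, percentile 46.1), held a RANKL peak at 21974864 to 21975152 (score 93.3, percentile 64.1). Scores of the lists are not on a common scale, so only the percentiles can be set side by side.

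Some of the strongest sites without RANKL had a lower rank with RANKL. The highest-scoring site of group 1 without RANKL, 22065377 to 22067569 (score 239, percentile 92.5), held 2 RANKL peaks, and the stronger one at 22066351 to 22066685 scored 87.7 (percentile 60.9). In group 2 the site at 23608521 to 23612024 scored 236 without RANKL (percentile 92.3), and its RANKL peak at 23609841 to 23610111 scored 67.2 (percentile 42.6). The site at 23829714 to 23832809 stood at percentile 90.0 without RANKL and 66.1 with RANKL, and the site at 23653993 to 23655621 at 77.8 and 50.5. The site at 23646051 to 23648889 was at percentile 49.1 without RANKL and 0.724 with RANKL, close to the lowest of the list. Another strong site stood high in both lists, at 23712034 to 23715237, with a score of 229 (percentile 91.6) without RANKL and 154 (percentile 82.9) with RANKL.

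Other sites of group 2 stood higher with RANKL. The site at 23836431 to 23839169 was at percentile 65.5 without RANKL, and its RANKL peak at 23838209 to 23838519 had the highest score of the group, 181 (percentile 86.9). The site at 23774604 to 23777787 was at percentile 54.6 without RANKL and 77.1 with RANKL, the site at 23792365 to 23793751 at 31.8 and 57.8, and the site at 23851942 to 23856327, 1 of the widest of the region at 4386 bp, at 36.4 and 67.0. Group 2 thus had sites on both sides of equal rank, 5 lower and 5 higher with RANKL. In group 1, 1 of 8 shared sites was lower and 7 were higher. Over all shared broad peaks 45.2% were lower, and in both groups together it was 6 of 18 (33.3%). Of the 7 higher sites of group 1, the 3 not named above were weak to middling without RANKL. The site at 21870490 to 21873326 was at percentile 41.6 without RANKL and 65.7 with RANKL. The others were 22005485 to 22007182 at 11.6 and 35.1, and 22112419 to 22114944 at 17.1 and 21.3. In group 2 the site at 23634749 to 23636609 was a little higher with RANKL, at 63.3 and 69.3, a difference of 5.94. Differences of similar size were counted as higher in group 1, at 22031689 to 22033629 (5.28), 22112419 to 22114944 (4.16) and 22141544 to 22143635 (6.81).

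Over the 18 shared sites of both groups the percentile with RANKL minus that without had a median of 6.37 (quartiles -20.1 and 22.22). Over all 8186 shared broad peaks the median was 1.70 (quartiles -10.3 and 17.8). The percentiles of a site in the lists were loosely related, with Pearson r = 0.47 and Spearman rho = 0.37 across the 18 sites, and 0.51 and 0.58 across all 8186. Sites of a library share its depth and calling settings, so these are descriptions. Among sites at or above percentile 75 without RANKL, the 7 in the groups had a median difference of -23.87, while the 3169 outside the region had -2.40 (quartiles -13.7 and 2.32, 5th percentile -45.1). The weaker sites stood higher with RANKL in the median, in the groups and elsewhere. The sites were sorted by the same percentile from which the difference was taken. A rise from low and a fall from high percentiles is thus partly built into this comparison. Where a site held several RANKL peaks the highest was taken, which raises the difference. Between percentiles 50 and 75 the medians were 16.5 over 4 sites in the groups and 2.45 outside the region, between 25 and 50 they were 24.1 over 5 sites and 17.2, and below 25 they were 13.8 over 2 sites and 34.0. Whether these shifts exceed what repeat libraries would give was not tested.

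**Figure D4:**
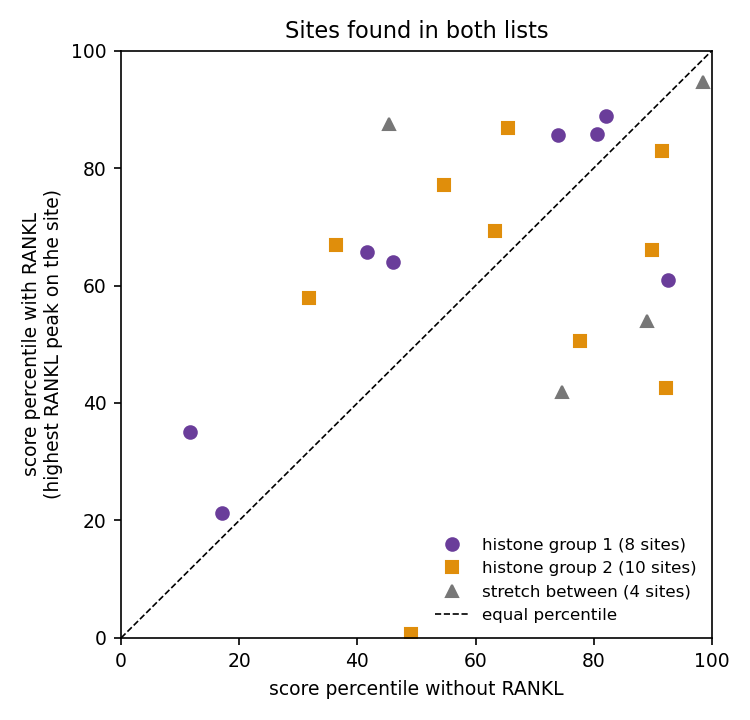
Score percentile of each shared site without RANKL (horizontal axis) and of the highest RANKL peak on it (vertical axis), for 8 sites of group 1, 10 of group 2 and 4 of the stretch between. The dashed line marks equal percentiles, and 1 site of group 1 and 5 of group 2 lie below it, against 45.2% of all shared broad peaks.

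At the shared sites of the groups the broad peaks were wide beside the RANKL peaks on them. All 18 highest-scoring RANKL peaks lay wholly inside their broad peak, as did 99.7% of those at all shared broad peaks. The broad peak was 8.44 times as wide as the RANKL peak in the median (range 4.09 to 20.4), against 5.87 over all shared broad peaks. The centres were 318 bp apart in the median (range 45 to 672 bp), against 171.5 bp. Group 1 was nearer the list, with medians of 6.64 times and 253 bp, than group 2, with 11.5 times and 373 bp. Peaks without RANKL in group 2 had a median width of 2789 bp, those in group 1 1974.5 bp and those of the whole list 1738 bp. RANKL peaks in the groups had a median width of 216 bp, against 233 bp in the list. Of the 22 broad peaks in the groups 5 held 2 or more RANKL peaks (22.7%), against 16.7% of the whole list.

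Histone genes of a class, transfer RNA genes and the vomeronasal receptor genes between the runs are families of related genes. How alike their DNA is was not measured here. How reads that match several copies were placed is not given in the sources used here, and the part this played in the peaks of the groups was not tested. Read depth is unknown, so a site missing from one list was not detected there and is not shown to be closed.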

How the data were processed

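For each of the 2 libraries (1 per condition) the authors deposited a list of peak positions, each with a score. The submitters' processing notes name Bowtie2 (2.0.0), MACS2 and build mm9. What defines the score, which threshold and control applied and how multiply matching reads were placed is not given in the sources used here. Deposited scores are printed as given and were compared only as percentiles within their own list, since the lists share no scale. Positions are printed 1-based on mm9.

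Overlaps (at least 1 bp) and counts were computed with scipy 1.17.1, pandas 2.3.3 and numpy 2.4.6 in Python 3.11.15, and figures with matplotlib 3.10.9. The overlap code was checked against bedtools 2.31.1 on simulated peaks. Shares carry 95% Wilson intervals (the limit for 0 of 42 peaks is 3 counts) and densities and ratios exact Poisson intervals. No p-value was computed. Named sites were the 5 highest scores per group and list, every peak of one list only in the groups and the 3 highest per list in the stretch between; further shared sites were named after their values were seen. The region, its parts and these rules were chosen with earlier results of these data known. Gene order and promoters came from RefSeq on GRCm38, with no conversion of coordinates. Alternatives were other overlap rules, the upper 50% by score, merging within 1 kb, groups widened by 50 kb and ranks within chromosome 13.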

Additional observations from a re-analysis of the deposited data

How the results depend on the processing

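Of 39 alternative values, 32 stayed within the 95% interval of the reported value and 7 did not. A reciprocal overlap of 50% left 0% shared in both lists, in the groups and in the stretch between, because the RANKL peaks are too narrow to fill 50% of a broad one. In the upper 50% of each list by score, with the overlap sought in the whole other list, 100% of the peaks without RANKL were shared in the groups (11 of 11) and in the stretch (3 of 3), as were 100% of the RANKL peaks in the stretch (4 of 4), while the RANKL peaks of the groups were shared in 60.7%. The ratio of RANKL peaks to peaks without RANKL in the groups was 2.55 in the upper 50% and 1.50 with neighbours merged, against 1.91. Widening the groups by 50 kb gave density ratios of 6.09 without and 9.76 with RANKL. Each group alone, an alternative added after the data were seen, gave shared parts of 80 and 83.3% without and 45.5 and 65.0% with RANKL. No paired analysis was possible because each condition had 1 library, and none could be left out. The unknown depth limits what a missing peak can show.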

Other observations

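Closely spaced RANKL peaks were about as frequent in the histone groups as in the whole list. Of the 21 gaps between neighbouring RANKL peaks in group 1, 4 were under 1 kb (19.05%), and in group 2 it was 5 of 19 (26.3%), against 17.0% over chromosomes 1 to 19 and X. Without RANKL the shortest gap was 5.15 kb in group 1 and 1.33 kb in group 2. The median gap in group 2 was 11.3 kb without and 7.64 kb with RANKL, and in group 1 it was 29.9 and 13.7 kb, against 41.1 and 37.6 kb over chromosomes 1 to 19 and X.

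The longest empty part of group 1 without RANKL ran from 21873326 to 21973575, or 100.2 kb. With RANKL 4 narrow peaks lay inside it. In group 2 the longest gap was 59.4 kb without and 62.2 kb with RANKL.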
